A study of Homo sapiens with 4 samples.

Results

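The genes described here encode the autophagy class III phosphatidylinositol 3-kinase (PI3-kinase) complex, its regulator AMBRA1, and the WIPI proteins WIPI1 and WIPI2. They are BECN1, PIK3C3, PIK3R4, ATG14, UVRAG, AMBRA1, WIPI1 and WIPI2, found by symbol in the deposited tables, and make up 8 of the 60676 genes listed. RNA was measured in U2OS cells, an established human osteosarcoma line grown without any stated treatment, by nRIP-seq, a native nuclear immunoprecipitation in which the RNA that an antibody brings down from an uncrosslinked lysate is sequenced. The study set RNA brought down by an LC3B antibody beside RNA brought down by non-specific IgG, to find which mRNAs are recovered with LC3B. The groups are the LC3B pull-down, the IgG pull-down, the LC3B input and the IgG input, the inputs being RNA taken without antibody. Values given with LC3B or with IgG are those of the pull-downs. Each of the 4 groups is 1 library of polyadenylated RNA from this one line, so there is no replicate error and no test across samples. All intervals below are at 95% and hold only the error of counting reads. PCR copies are not separate molecules and carry no identifiers. Where such copies were counted as separate reads, the intervals are too narrow.

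When autophagy starts, the lipid kinase PIK3C3 (VPS34) makes phosphatidylinositol 3-phosphate (PI3P) on the membrane from which the autophagosome grows. PIK3C3 works in a complex with the pseudokinase PIK3R4 (VPS15) and with BECN1 (Beclin 1), to which either ATG14 binds, directing the complex to autophagosome formation, or UVRAG, directing it to endosomes and autophagosome maturation. WIPI proteins are WD-repeat propellers that bind PI3P, and WIPI2 then recruits the machinery that attaches LC3 proteins to the membrane. The library measures RNA recovered with LC3B protein, not the proteins themselves.

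Total counts outside the mitochondrial genome ranged from 8404123 in the IgG input to 10375786 in the LC3B pull-down, and levels are given as CPM, the count scaled to these totals. Mitochondrial genes, left out here, took 0.774% of reads with LC3B and 1.76% with IgG, against 20.8% and 22.8% in the LC3B and IgG inputs. Keeping them in the totals multiplies every fold over input by 1.25 with LC3B and by 1.27 with IgG, and is named below where a direction or a call turns on it. The IgG pull-down stood apart in breadth, covering 14425 genes outside the mitochondrial genome, whereas the other libraries covered 22932 to 23900. Among osteoblast-lineage markers, RUNX2, SPARC, COL1A1 and ALPL passed a mean of 1 CPM, while COL1A2, BGLAP, IBSP and SP7 had 0 to 3 reads in each library. Of 9 markers of other cell types, EPCAM (epithelium), CDH1 (epithelium) and RBFOX3 (neurons) passed 1 CPM, and EPCAM averaged 16.6 CPM over the inputs.

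The filter applied to every gene, a 4-library mean of 1 CPM or more, was passed by 15431 genes and by all 8 described here. Each of the 8 was read in the inputs and with LC3B. PIK3C3, UVRAG and AMBRA1 had 0 reads in the IgG pull-down, as did 19.7% of the genes that passed. A gene is called higher where the lower bound of its fold is at least 2, and lower where the upper bound is at most 0.5. By that rule 4 of the 8 were higher with LC3B than with IgG (PIK3C3, ATG14, UVRAG and AMBRA1), against 33.8% of all genes that passed, and 0 of 8 were lower, against 9.45%. Relative to the LC3B input, 0 of 8 were called higher in the LC3B pull-down, against 1.40% of genes, and 0 lower, against 4.48%. Relative to the IgG input, 4 of 8 were called lower in the IgG pull-down, against 33.6% of genes, and 0 higher, against 9.69%. These last 4 are again PIK3C3, ATG14, UVRAG and AMBRA1, and both comparisons that call them use the IgG pull-down library.

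**Figure D1:**
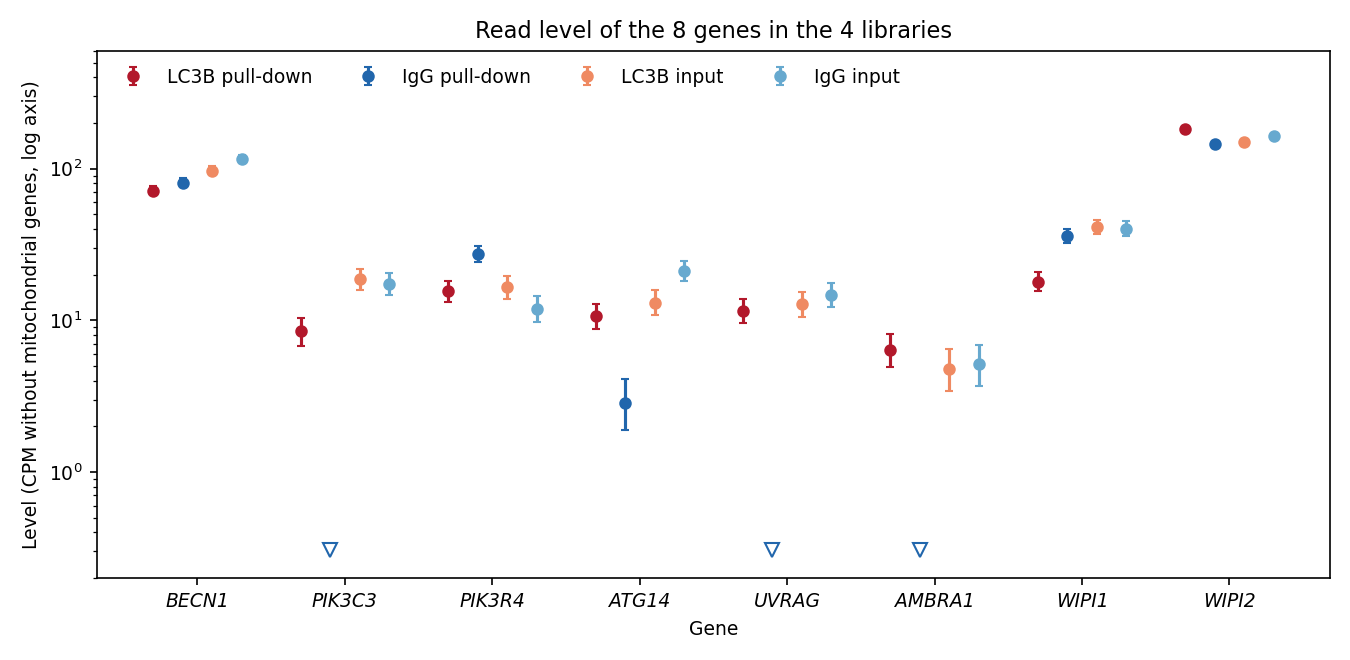
Level of each gene in each library in CPM without mitochondrial genes, on a log axis. Bars are 95% Poisson counting intervals. Open triangles mark 0 reads in the IgG pull-down and are drawn at 0.305 CPM, the level of 3 reads, where the 95% upper limit is 0.375 CPM. The triangles belong to PIK3C3, UVRAG and AMBRA1, whose other libraries lie between 4.80 and 18.7 CPM.

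BECN1 (ENSG00000126581, hg38 chromosome 17, 42810134 to 42833350, minus strand), the scaffold on which the complex assembles, was read at 71.6 CPM (66.6 to 76.9) with LC3B and 81.0 CPM (75.5 to 86.9) with IgG, against 97.3 CPM (90.8 to 104) and 116 CPM (109 to 124) in the LC3B and IgG inputs. It was lower in each pull-down than in its own input, and the pull-downs lay close together, with a fold of 0.884 for LC3B over IgG (0.799 to 0.978). The fold over its own input was 0.736 (0.666 to 0.814) with LC3B and 0.696 (0.633 to 0.765) with IgG. With mitochondrial genes kept in the totals these folds were 0.922 (0.834 to 1.02) and 0.886 (0.806 to 0.974). The inputs alone differed by a fold of 0.836 (0.761 to 0.918), LC3B over IgG. BECN1 overlaps PSME3 and CNTD1 on the opposite strand, which had 2335 and 186 reads in the LC3B pull-down, and the strand setting of the counting is not given in the sources used here, so reads of these neighbours cannot be told apart with certainty.

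PIK3C3 (ENSG00000078142, chromosome 18, 41955234 to 42087830, plus strand), the catalytic subunit, had 88 reads with LC3B and 0 with IgG, against 160 and 146 in the LC3B and IgG inputs. In CPM these are 8.48 (6.80 to 10.4) with LC3B and 0 (0 to 0.375) with IgG. The LC3B and IgG inputs had 18.7 (15.9 to 21.9) and 17.4 (14.7 to 20.4). The inputs lay close together and both pull-downs lay below them. The LC3B pull-down was thus at least 27.8-fold higher than the IgG pull-down, the bound being set by 3 reads for IgG, while its fold over the LC3B input was 0.453 (0.345 to 0.591), uncalled because the interval reaches above 0.5. The IgG pull-down, again set to 3 reads, was 56.9-fold lower than its input, and the upper bound of its fold over input was 0.0219.

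PIK3R4 (ENSG00000196455, chromosome 3, 130678934 to 130746829, minus strand), the regulatory partner that holds PIK3C3 in the complex, ran the other way. It had 161 reads with LC3B and 269 with IgG, against 141 and 100 in the LC3B and IgG inputs, or 15.5, 27.4, 16.5 and 11.9 CPM in that order. The IgG pull-down held the highest level, 2.30-fold (1.82 to 2.92) above its input, whereas the LC3B pull-down stood at 0.940 (0.745 to 1.19) of its own. LC3B over IgG gave 0.567 (0.463 to 0.691). Neither was called, but with mitochondrial genes kept in the totals the IgG fold was 2.93 (2.32 to 3.72) and passed the bound. In deposited TPM rescaled without mitochondrial genes the IgG fold was 1.75 (1.39 to 2.22). The inputs themselves differed by a fold of 1.39 (1.07 to 1.81), LC3B over IgG. Without mitochondrial genes in the totals, PIK3R4 had the only IgG pull-down level above both inputs among the 8 genes, whereas with them the IgG folds of WIPI1 and WIPI2 over input were also above 1.

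Because PIK3C3 and PIK3R4 are bound as a pair in the protein complex, their reads were also set against each other within each library, where no scaling between libraries enters. PIK3C3 took 35.3% of the reads of the pair in the LC3B pull-down (exact binomial interval 29.4 to 41.6, 249 reads) and 0% in the IgG pull-down (0 to 1.36, 269 reads), against 53.2% in the LC3B input (47.3 to 58.9, 301 reads) and 59.3% in the IgG input (52.9 to 65.5, 246 reads). These intervals with LC3B and with IgG lay below those of both inputs. Set as a ratio of ratios, PIK3C3 over PIK3R4 in the LC3B pull-down was 0.482 (0.341 to 0.680) of that in the LC3B input. The ratio between the inputs was 0.777 (0.553 to 1.09), LC3B over IgG. In deposited TPM, PIK3C3 over PIK3R4 was 0.902 in the LC3B pull-down, against 1.44 and 2.20 in the LC3B and IgG inputs, a smaller drop from the LC3B input than in counts.

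ATG14 (ENSG00000126775, chromosome 14, 55366391 to 55411830, minus strand), the subunit that marks the autophagy-initiating form, had 111 reads with LC3B and 28 with IgG, against 112 and 179 in the LC3B and IgG inputs. Its levels were 10.7 CPM with LC3B and 2.85 CPM (1.89 to 4.12) with IgG, against 13.1 CPM and 21.3 CPM in the LC3B and IgG inputs. The LC3B over IgG fold was 3.75 (2.46 to 5.90), and the IgG pull-down stood at 0.134 (0.0865 to 0.200) of its input. The LC3B pull-down stood at 0.816 (0.622 to 1.07) of its input, an interval that includes 1. The inputs themselves differed, with a fold of 0.616 (0.482 to 0.784), LC3B over IgG. With 0.5 CPM added to both sides this is a log2 difference of -0.68, below the range of -0.47 to 0.60 that held the central 95% of the 3568 genes at 10 to 30 CPM in the inputs.

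UVRAG (ENSG00000198382, chromosome 11, 75815210 to 76144232, plus strand), which takes the place of ATG14 in the endosomal form, had 120 reads with LC3B and 0 with IgG, against 109 and 123 in the LC3B and IgG inputs. The levels were 11.6 CPM (9.59 to 13.8) with LC3B and 0 with IgG, against 12.8 CPM (10.5 to 15.4) and 14.6 CPM (12.2 to 17.5) in the LC3B and IgG inputs. With 3 reads set for IgG, UVRAG was 37.9-fold higher with LC3B than with IgG, with a lower bound of 30.3. It stood at 0.906 (0.693 to 1.19) of its input with LC3B. Its divergent transcript UVRAG-DT, on the opposite strand, had at most 3 reads in any library, and the other 7 features inside the span had 0. ATG14 took 48.1% (41.5 to 54.7) of the reads of the ATG14 and UVRAG pair in the LC3B pull-down and 50.7% (43.9 to 57.4) in the LC3B input, with 59.3% (53.5 to 64.9) in the IgG input. In the IgG pull-down all 28 reads of the pair were ATG14.

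AMBRA1 (ENSG00000110497, chromosome 11, 46396414 to 46594125, minus strand), an intrinsically disordered scaffold that binds BECN1 and can bind LC3 as a protein, was the least abundant of the 8 in CPM. It had 66 reads with LC3B and 0 with IgG, against 41 and 43 in the LC3B and IgG inputs, or 6.36, 0, 4.80 and 5.12 CPM in that order. With 3 reads set for IgG, it was 20.8-fold higher with LC3B than with IgG, with a lower bound of 16.5. The fold over the LC3B input was 1.33 (0.884 to 2.01), the highest among the 8 genes in that comparison, with an interval that includes 1. A processed pseudogene on the same strand inside its span, AC024293.1, had 13 reads with LC3B and 11 with IgG. It had 6 and 14 in the LC3B and IgG inputs. Where these reads arose was not tested, so they say nothing of AMBRA1 RNA.

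WIPI1 (ENSG00000070540, chromosome 17, 68420948 to 68457513, minus strand) was lowest in the LC3B pull-down. It had 187 reads there and 352 with IgG, against 353 and 339 in the LC3B and IgG inputs, or 18.0 CPM (15.5 to 20.8), 35.8 CPM (32.2 to 39.8), 41.3 CPM (37.1 to 45.9) and 40.3 CPM (36.2 to 44.9) in that order. The other 3 libraries overlap in their intervals. The LC3B pull-down stood at 0.436 (0.363 to 0.522) of its input and at 0.503 (0.419 to 0.602) of the IgG pull-down, each a point value near 0.5 and neither called. The IgG pull-down stood at 0.888 (0.763 to 1.03) of its input, or 1.13 (0.971 to 1.32) with mitochondrial genes kept in the totals. On the opposite strand WIPI1 overlaps ARSG. That gene had 48 reads with LC3B and 67 with IgG, against 66 and 42 in the LC3B and IgG inputs. As the strand setting is not given, reads of ARSG cannot be told apart from those of WIPI1 with certainty.

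WIPI2 (ENSG00000157954, chromosome 7, 5190196 to 5233840, plus strand), the WIPI protein that brings the LC3 conjugation machinery to PI3P, was the most abundant of the 8 and highest in the LC3B pull-down. It had 1885 reads there and 1431 with IgG, against 1281 and 1379 in the LC3B and IgG inputs, or 182 CPM (174 to 190), 146 CPM (138 to 153), 150 CPM (142 to 158) and 164 CPM (156 to 173) in that order. The fold was 1.25 (1.16 to 1.34) over the IgG pull-down and 1.21 (1.13 to 1.30) over the LC3B input. The IgG pull-down stood at 0.888 (0.824 to 0.957) of its input, a direction that turns to 1.13 (1.05 to 1.22) with mitochondrial genes kept in the totals. The LC3B folds are small beside genes of 100 to 300 CPM in the inputs, whose central 80% spanned log2 values of -1.17 to 0.64 over the LC3B input, where WIPI2 stood at 0.28.

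**Figure D2:**
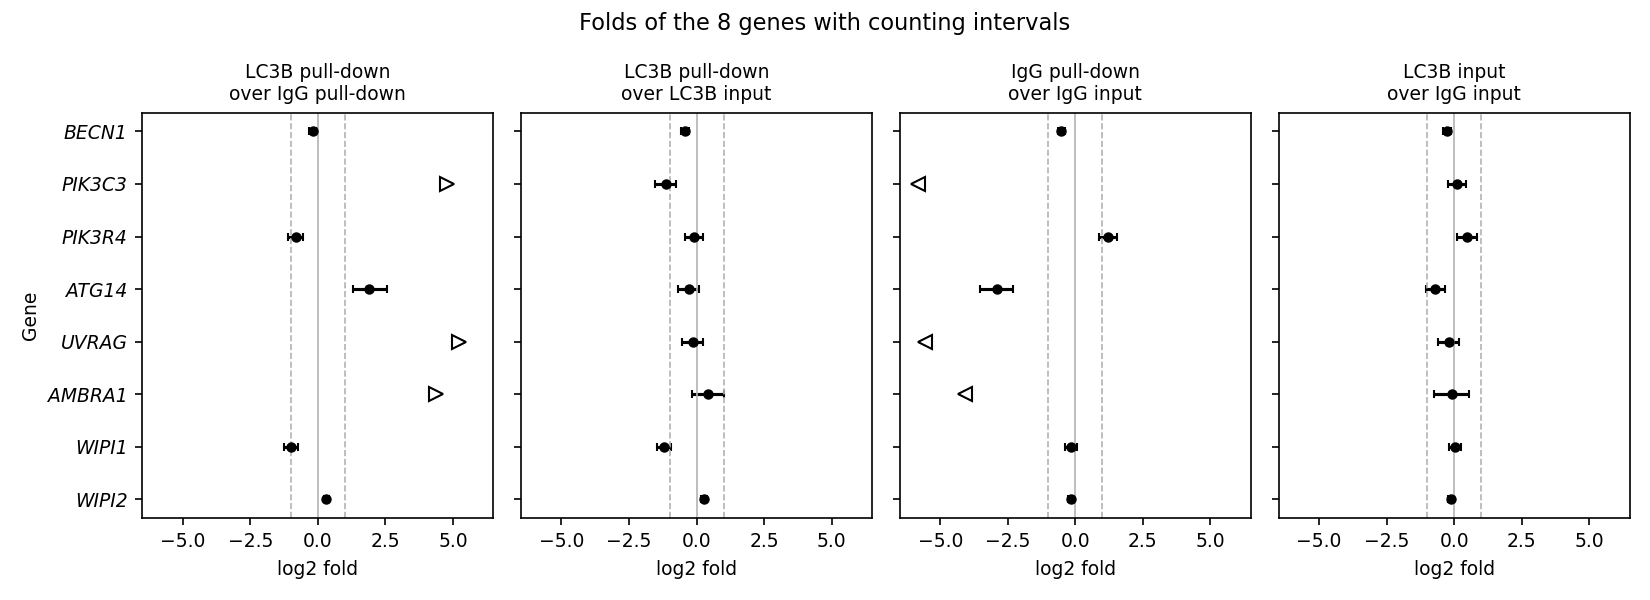
Log2 fold of each gene in 4 comparisons, with 95% counting intervals as bars. Open triangles are folds with 3 reads set for the IgG pull-down where it had 0, drawn without an interval. Dashed lines mark folds of 0.5 and 2. PIK3C3, ATG14, UVRAG and AMBRA1 lie to the right in the LC3B over IgG panel and to the left in the IgG over input panel, panels that share the IgG library.

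WIPI1 and WIPI2 were compared within each library as well. WIPI2 took 91.0% (89.7 to 92.2) of the 2072 reads of the pair in the LC3B pull-down and 80.3% (78.3 to 82.1) of 1783 in the IgG pull-down, against 78.4% (76.3 to 80.4) of 1634 in the LC3B input and 80.3% (78.3 to 82.1) of 1718 in the IgG input. The LC3B pull-down lay above the other 3 libraries, whose intervals overlap. The WIPI2 to WIPI1 ratio in the LC3B pull-down was 2.78 times (2.29 to 3.36) that in the LC3B input and 2.48 times (2.05 to 3.0) that in the IgG pull-down, while the IgG pull-down stood at 0.999 (0.846 to 1.18) of its input. With 1 LC3B library, how far this ratio varies between pull-downs was not measured. The other WIPI genes, WDR45B (WIPI3) and WDR45 (WIPI4), were uncalled in every comparison. WDR45B stood at 0.551 (0.507 to 0.599) over input with LC3B and 0.507 (0.461 to 0.556) with IgG, and WDR45 at 1.40 (1.25 to 1.57) with LC3B and 1.58 (1.42 to 1.77) with IgG.

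**Figure D3:**
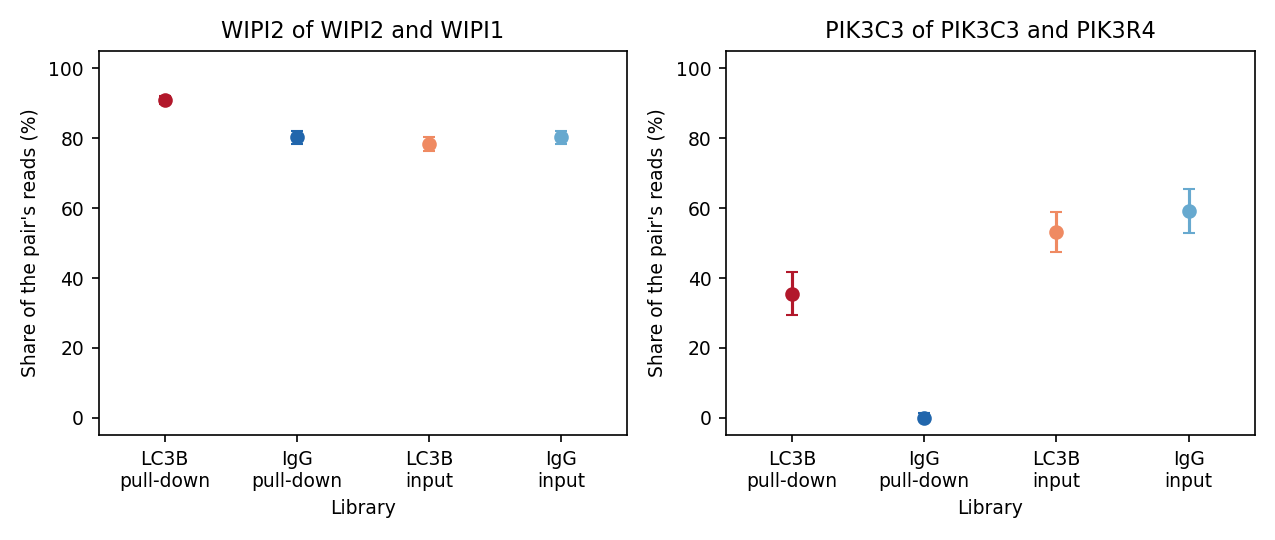
Share of the reads of a gene pair taken by WIPI2 (left) and by PIK3C3 (right) in each library, in percent, with 95% exact binomial intervals. WIPI2 reached 91.0% in the LC3B pull-down, with 78.4% to 80.3% elsewhere, and PIK3C3 reached 35.3% in the LC3B pull-down and 0% in the IgG pull-down, with 53.2% and 59.3% in the LC3B and IgG inputs.

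The folds were read against genes of like abundance. AMBRA1 averaged 4.96 CPM over the inputs, and of the 3366 genes at 3 to 10 CPM 36.7% were at 0 with IgG and 51.1% were called higher with LC3B than with IgG. PIK3C3, PIK3R4, ATG14 and UVRAG averaged 18.1, 14.2, 17.2 and 13.7 CPM, and of the 3568 genes at 10 to 30 CPM 16.5% were at 0 with IgG and 37.4% were called higher with LC3B than with IgG. At 30 to 100 CPM, where WIPI1 lies, 2.85% of 3580 genes were at 0 with IgG and 20.9% were called higher with LC3B, and at 100 to 300 CPM, where BECN1 and WIPI2 lie, 0 of 1718 were at 0 and 8.96% were called higher. With LC3B, 0 genes of 10 to 300 CPM lacked reads. Of the genes at 0 with IgG, AMBRA1 lay in a class with a share of zeros above the 19.7% of all genes, and PIK3C3 and UVRAG in one below it.

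**Figure D4:**
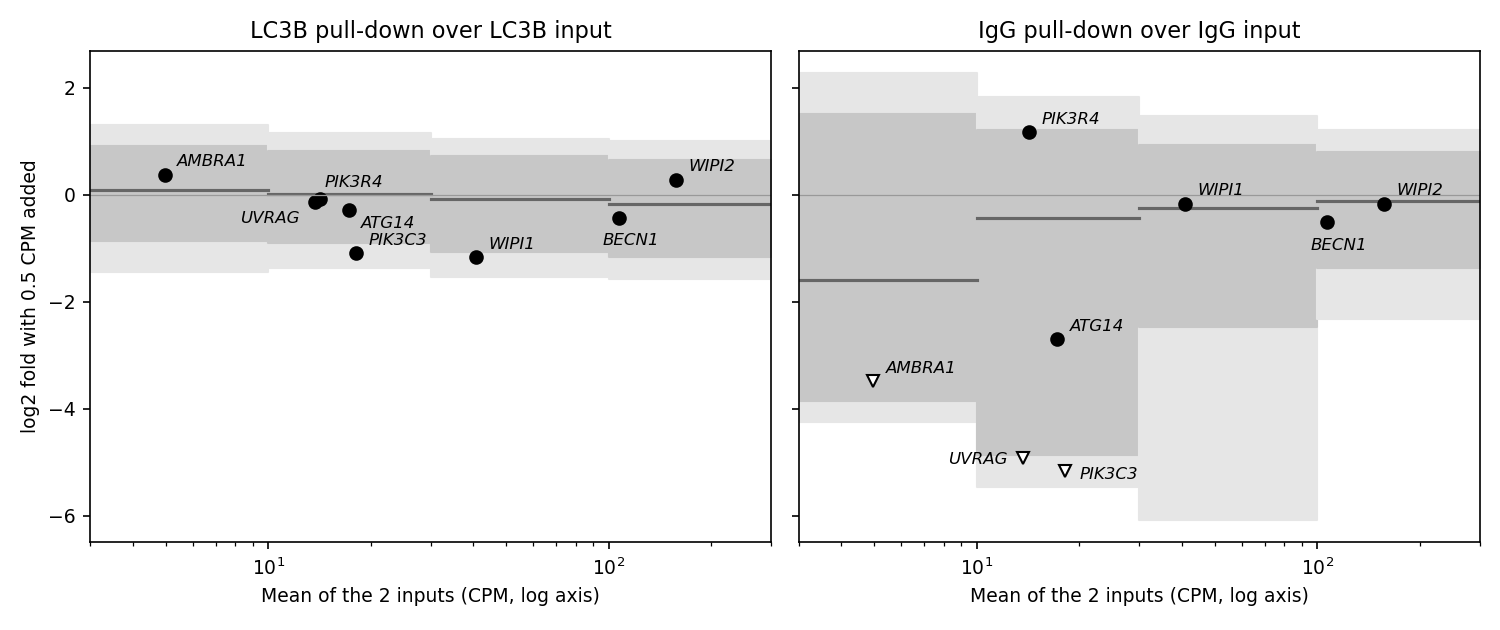
Log2 fold of each pull-down over its own input, with 0.5 CPM added, against the mean of the inputs in CPM on a log axis. Dark and light bands hold the central 80% and 95% of all genes in each abundance class, lines are medians, and open triangles have 0 reads in the IgG pull-down; the bands are wider for IgG than for LC3B and all 8 genes lie within the light bands.

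Over their own input with 0.5 CPM added, PIK3C3 stood at a log2 value of -1.10 and WIPI1 at -1.17 with LC3B, between the lowest 2.5% and the lowest 10% of genes in their abundance classes (-1.38 and -0.91 for PIK3C3, -1.53 and -1.08 for WIPI1). The other 6 lay within the central 80%. In the IgG pull-down PIK3C3 stood at -5.16 and UVRAG at -4.92, between -5.47 and -4.87, which bound the same lowest shares at 10 to 30 CPM. Both had 0 reads with IgG, as did 16.5% of genes in that class. Their values are thus set by the input level and the 0.5 CPM added, and do not rank depletion among genes at 0. The median log2 value of the 8 genes was 1.03 for LC3B over IgG, where that of all genes was 0.41. This median falls in a gap between WIPI2 at 0.32 and ATG14 at 1.74, and describes no single gene. Class medians in that comparison ran from 1.64 at 3 to 10 CPM to -0.08 at 100 to 300 CPM. The median of the 8 genes was -0.21 over the LC3B input (all genes 0.01) and -1.61 for IgG over its input (all genes -0.43). Between the inputs it was -0.11 (all genes 0.02). In the comparison of the inputs 0 of 8 were called in either direction, against 0.136% of genes higher and 0.156% lower.

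An input-corrected ratio divides the fold over input with LC3B by the fold over input with IgG. Of the 8 genes 4 were called higher by this ratio, against 29.1% of genes, and 0 lower, against 7.58%. With 0.1 in place of 0.5 added to each count 2 were called higher, and by point folds without intervals 2 were called lower. ATG14 had a ratio of 6.01 (3.74 to 9.65), and PIK3C3, UVRAG and AMBRA1, at 0 with IgG, had lower bounds of 9.56, 16.1 and 8.04, which rest on the 0.5 added to each count. PIK3R4 at 0.410 (0.297 to 0.565) and WIPI1 at 0.492 (0.390 to 0.620) were below 1, BECN1 was at 1.06 (0.923 to 1.21) and WIPI2 at 1.36 (1.23 to 1.51). Summed over the 8 genes, the level was 324 CPM (313 to 335) in the LC3B pull-down and 293 CPM (282 to 304) in the IgG pull-down, against 354 CPM (342 to 367) and 391 CPM (378 to 405) in the LC3B and IgG inputs, so both pull-downs held less than either input on this scale. Of all reads, mitochondrial ones included, the sum was 321 CPM with LC3B and 288 CPM with IgG. The LC3B and IgG inputs had 281 and 302 CPM, which removes that order. WIPI2 and BECN1 gave 1885 and 743 of the 3361 reads of the sum with LC3B. Without mitochondrial genes, WIPI2 alone was higher in the LC3B pull-down, at 182 CPM, than in the LC3B and IgG inputs, at 150 and 164 CPM.

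Levels between genes were compared per transcript length, in the deposited TPM values, which include mitochondrial genes. In the LC3B input WIPI2 had 64.40 TPM, BECN1 53.86, WIPI1 21.53, PIK3C3 9.77, PIK3R4 6.78, UVRAG 3.28, ATG14 2.42 and AMBRA1 0.86. In the IgG input the order differed only in that ATG14, at 3.80 TPM, stood above UVRAG at 2.65. In the LC3B pull-down the order was WIPI2 at 92.03 TPM, BECN1 at 42.37, WIPI1 at 11.04, PIK3R4 at 7.67, PIK3C3 at 6.92, UVRAG at 4.28, ATG14 at 2.34 and AMBRA1 at 1.35, with PIK3R4 and PIK3C3 changing places relative to the inputs. In the IgG pull-down WIPI2 had 72.72 TPM, BECN1 41.78, WIPI1 21.41, PIK3R4 11.05 and ATG14 0.60, with the other 3 listed at 0. The neighbours BECN1 and WIPI2 stood in a TPM ratio of 0.460 in the LC3B pull-down and 0.575 in the IgG pull-down, against 0.836 and 0.835 in the LC3B and IgG inputs.

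Counts and TPM did not move together for every gene. The number of reads per TPM unit, divided by its median over genes in the same library, reflects the transcript length the authors assigned to a gene in that library. It was steady for ATG14, at 2.79 to 2.81 in the LC3B pull-down and both inputs, and for WIPI1, at 0.989 to 1.06 over the 4 libraries. BECN1 had 1.03 in the LC3B pull-down and 1.23 in the IgG pull-down, against 0.931 and 1.04 in the LC3B and IgG inputs. PIK3C3 had 0.750 in the LC3B pull-down, against 0.988 and 0.805 in the LC3B and IgG inputs. PIK3R4 had 1.24 in the LC3B pull-down and 1.57 in the IgG pull-down, against 1.25 and 1.21 in the LC3B and IgG inputs. UVRAG had 1.65 in the LC3B pull-down, against 2.0 and 2.77 in the LC3B and IgG inputs. AMBRA1 had 2.88 in the LC3B pull-down and 1.48 in the IgG input. For the LC3B input AMBRA1 has no such value, as its 0.86 TPM lay below the 1 TPM required. In TPM rescaled without mitochondrial genes the AMBRA1 fold between the inputs was 0.485, LC3B over IgG, against 0.938 in counts. That of UVRAG was 1.21 against 0.872. The deposited tables list 12 transcripts of AMBRA1 and 9 of UVRAG but 2 of ATG14, and do not give reads per transcript.

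A wider list holds partners and regulators of the complex, the other WIPI genes, and genes whose proteins bind, make or convert PI3P. Of its 31 genes, all found, 30 passed the filter. For LC3B over IgG 10 of 30 were called higher, against 33.8% of all genes, and 4 lower, against 9.45%, with a median log2 value of -0.11 (all genes 0.41). For LC3B over its input 0 were called higher, against 1.40%, and 4 lower, against 4.48%, with a median of -0.48 (all genes 0.01). For IgG over its input 5 were called higher, against 9.69%, and 10 lower, against 33.6%, with a median of -0.45 (all genes -0.43), and 5 were at 0 with IgG, against 19.7%. The share called higher for LC3B over IgG and the share called lower for IgG over its input were thus near those of all genes. With mitochondrial genes kept in the totals, 0 of the 4 remained lower over the LC3B input and VAC14, at 2.08 without them, was called higher. Among those of at least 10 CPM in the inputs, MTMR4, a phosphatase of the myotubularin family that removes the phosphate from PI3P, had 325 reads with LC3B and 1 with IgG, against 431 and 278 in the LC3B and IgG inputs, a fold of 308 (54.8 to 12192) for LC3B over IgG. ZFYVE1 (DFCP1), a PI3P-binding protein that marks sites of autophagosome formation, had 147 reads with LC3B and 2 with IgG, against 81 and 121 in the LC3B and IgG inputs, a fold of 69.6 (18.9 to 580). The phosphatase MTMR6 at 4.87 (3.21 to 7.66) and ZFYVE16 (endofin), an endosomal PI3P-binding protein, at 4.21 (3.10 to 5.83) were also called higher. SNX4, a PI3P-binding sorting nexin, was called lower, with 399 reads with LC3B and 880 with IgG, against 897 and 947 in the LC3B and IgG inputs, and folds of 0.429 (0.380 to 0.484) over IgG and 0.366 (0.325 to 0.413) over the LC3B input.

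By group, 2 of 9 partners and regulators of the complex were called higher for LC3B over IgG and 0 lower, where all genes gave 33.8% higher and 9.45% lower. Both, RUBCNL and BCL2, were at 0 with IgG and had at most 27 reads in any library. Of 8 PI3P-binding effectors 3 were higher and 3 lower, of 10 PI3P-converting enzymes 5 were higher and 1 lower, and of the other PI3P-making kinases the 1 that passed, PIK3C2A, was uncalled there but called lower over the LC3B input at 0.420 (0.353 to 0.499).

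The gene outside the list with the most alike pattern was sought for each of the 8, as the one whose largest difference in log2(CPM + 0.5) over the 4 libraries was smallest. These were FANCL for BECN1 (largest difference 0.08), CPLANE1 for PIK3C3 (0.10), KLHL20 for PIK3R4 (0.18), TDRD7 for ATG14 (0.27), BCL9 for UVRAG (0.05), GRB7 for AMBRA1 (0.03), UBE2D4 for WIPI1 (0.13) and PAF1 for WIPI2 (0.09). Many genes lay near most members, with 111 to 297 genes within 0.5 of each in all 4 libraries, except ATG14, which had 13.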

How the data were processed

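Polyadenylated RNA of 4 U2OS libraries (LC3B pull-down, IgG pull-down and an input for each) was sequenced after a SMART-Seq v4 preparation, per the labels' protocols. The authors deposited raw read counts per Ensembl gene and TPM scaled within each library, per the file headers; cutadapt 2.8, STAR 2.7.1a and build hg38 are named in the submitters' processing notes. The counting tool, annotation release, strand setting, duplicate handling and transcript lengths used are not stated there. Commas that group digits were removed from the deposited counts, after which every value was whole.

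Counts were divided by library totals without mitochondrial genes. Folds have exact conditional binomial intervals, levels exact Poisson and shares exact Clopper-Pearson intervals, and the input-corrected ratio and ratios of ratios log-normal ones, the input-corrected ratio with 0.5 added to each count (Python 3.11.15, scipy 1.17.1). A library at 0 reads was set to 3 reads, giving a fold that leaves out the counting error of the other library. With 1 library a group no test was made. The alternatives were 5 scalings or thinning, deposited TPM, point folds, bounds of 4 and 0.25, filters of none and 5 CPM, and 0.1 or 1 added to each count; TMM and median-of-ratios scalings came from purpose-written code, and the fold routine was tested on simulated data. Genes were named by rule: the 8 members, up to 4 called pathway genes in each direction of at least 10 CPM in the inputs, and the most alike gene of each member; other genes named as parts of small counts, group examples or overlaps were chosen after their values were seen. Members and lists were chosen with earlier results of these data known. One marker gene is not reported here.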

Additional observations from a re-analysis of the deposited data

Results flagged for a closer look

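WIPI2 was on opposite sides of its inputs in the pull-downs: 1.21-fold (1.13 to 1.30) over its input with LC3B and 0.888-fold (0.824 to 0.957) with IgG, a ratio of 1.36 between them. With 1 library a group the difference was not tested across samples. With mitochondrial genes kept in the totals the folds were 1.52 with LC3B and 1.13 with IgG, both above 1. The WIPI2 inputs themselves differed by a fold of 0.914 (0.846 to 0.987), LC3B over IgG. Without mitochondrial genes, the median log2 value of genes at 100 to 300 CPM was -0.18 over the LC3B input, where WIPI2 stood at 0.28. Over the IgG input it was -0.12, and WIPI2 lay near it at -0.17.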

How the results depend on the processing

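No paired analysis was possible because each group holds 1 library, so any 2 groups share 1 replicate number. The 4 calls for LC3B over IgG and the 4 for IgG over its input stayed at 3 or 4 under every alternative run. For PIK3C3, UVRAG and AMBRA1 this says little. Their lower bounds for LC3B over IgG, 22.1, 30.3 and 16.5, lie too far above 2 for the scalings to undo. Their upper bounds for IgG over its input, 0.0219, 0.0260 and 0.0766, lie far below 0.5. Their IgG TPM is 0, so deposited TPM gives no fold against it and could not test these calls. The ATG14 call could change, with a lower bound for LC3B over IgG of 2.46, or 2.23 under TMM. For the LC3B pull-down over its input, the count called lower was 1 in deposited TPM and 2 with point folds, in place of 0. For IgG over its input, the count called higher was 1 with mitochondrial genes in the totals and 1 with point folds, in place of 0. For the input-corrected ratio, 0.1 added to each count left 2 called higher in place of 4, since intervals widen for genes at 0 reads, and point folds gave 2 called lower in place of 0. Of single folds, 7 left their counting interval with mitochondrial genes in the totals, 8 in deposited TPM, and 1 each under TMM and median-of-ratios scaling, where WIPI2 over IgG was 1.13 and 1.15. Mitochondrial genes in the totals moved the median gene over the LC3B input to a log2 value of 0.32, in place of 0.01, and the share of calls that were higher to 77.2%, in place of 23.8%. For IgG over its input that share was 34.0%, in place of 22.4%. In deposited TPM, 82 genes were called higher and 58 lower between the inputs, in place of 21 and 24. The scalings of the PI3P pathway counts and of the summed level were added after seeing the data; TMM gave 9 pathway genes higher and 6 lower for LC3B over IgG, in place of 10 and 4. A count of 0 in the IgG pull-down allows up to 0.305 CPM, so PIK3C3, UVRAG and AMBRA1 have only bounds against it.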
